A study of Homo sapiens with 4 samples.

Results

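Circular RNAs made from 10 genes of the Fanconi anemia pathway (FANCA, FANCB, FANCC, FANCD2, FANCI, FANCL, FANCM, BRIP1, PALB2 and SLX4) were described in radiation-resistant MDA-MB-468 cells with and without knockdown of HNRNPL. A circular RNA, here called a circle, forms when a downstream splice donor is joined back to an upstream splice acceptor, and each circle was identified by the genomic positions of that back splice. Every back-splice position whose gene annotation names 1 of the 10 genes, and which is not classed as antisense, was taken. This gave 499 of the 211599 positions in the count table. At least 1 count was found for 451 of them, against 190152 in the whole table, and 80 had at least 10 counts over the 4 libraries, against 21576. FANCB was placed in the set because its circles were already known to be higher in the knockdown libraries of this experiment. Its values are therefore a description without a test, and tests are given for the 8 other genes that had enough counts. The other members and the gene lists were also chosen with earlier results of these data known, so their tests are not independent of that choice.

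MDA-MB-468 is an established human breast cancer line. All 4 libraries came from a derivative made resistant by 50 Gy of radiation given in fractions, so no library shows the cells before irradiation. The 2 control libraries carry a control hairpin (shCtrl, genotype given as WT) and the 2 knockdown libraries a stable hairpin against HNRNPL (shHNRNPL). The protocol names a single HNRNPL hairpin, so a second hairpin gives no check on its effects. HNRNPL encodes an RNA-binding protein that regulates splicing and binds CA-rich RNA. The table has no circle of HNRNPL, and the knockdown rests on the labels.

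The Fanconi anemia pathway repairs crosslinks between DNA strands at stalled replication forks. FANCM, a DNA translocase, brings the core complex to the lesion. Within that complex FANCL is the ubiquitin ligase, FANCB helps to hold and activate it, and FANCA and FANCC are structural subunits. The complex attaches ubiquitin to the paired proteins FANCD2 and FANCI. BRIP1, a helicase, PALB2, a scaffold for homologous recombination, and SLX4, a scaffold for nucleases, act further downstream. Inherited loss of these genes causes bone marrow failure and cancer risk. FANCB differs from the others in lying on the X chromosome. The data hold circular RNA alone, with no linear mRNA or protein, so every value below is a share of circular reads and not the activity of a gene.

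The control libraries held 472428 (replicate 1) and 556578 (replicate 2) counts, and the knockdown libraries 282737 and 390547. A level is given as counts per 100000 counts of its library. A fold against a group at 0 in both libraries is set against a floor of 3 counts per library, between 0.539 and 1.06 per 100000. Where 1 library of a group is at 0, its 0 enters the group mean. No molecular identifiers were used, so intervals and this limit cover counting error only. Control replicate 1 stood apart from the other 3 libraries. Exon circles held 70.9% of its counts and between 84.9% and 85.7% of theirs, antisense circles held 6.79% against 2.38% to 2.69%, and mitochondrial positions had 4456 counts against 10 to 419. The parts that these features and the spread between the controls play in the results were not tested, and the main results are also given without each control. Of 8 genes fixed as markers of the line, 6 had circular counts, including EGFR, GRHL2 and EPCAM, while KRT8 and KRT18 were at 0, and SMAD4, deleted in this line, had 2 counts. Of 5 marker genes of other cell types, 0 had a count.

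Circles of the 10 genes took a larger share of the knockdown libraries than of the controls, with FANCB the main contributor. They held 775 and 1617 control counts, and 1500 and 2184 knockdown counts, which is 0.164% and 0.291% against 0.531% and 0.559% of each library. Summed over its circles, each of FANCB, FANCL, FANCM and BRIP1 was higher in both knockdown libraries than in both controls. FANCD2 and FANCI were lower in both. FANCA, FANCC, PALB2 and SLX4 overlapped between the groups. Of all 8379 host genes tested, 15.3% had groups that did not overlap with the knockdown higher and 36.7% with the knockdown lower.

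**Figure D1:**
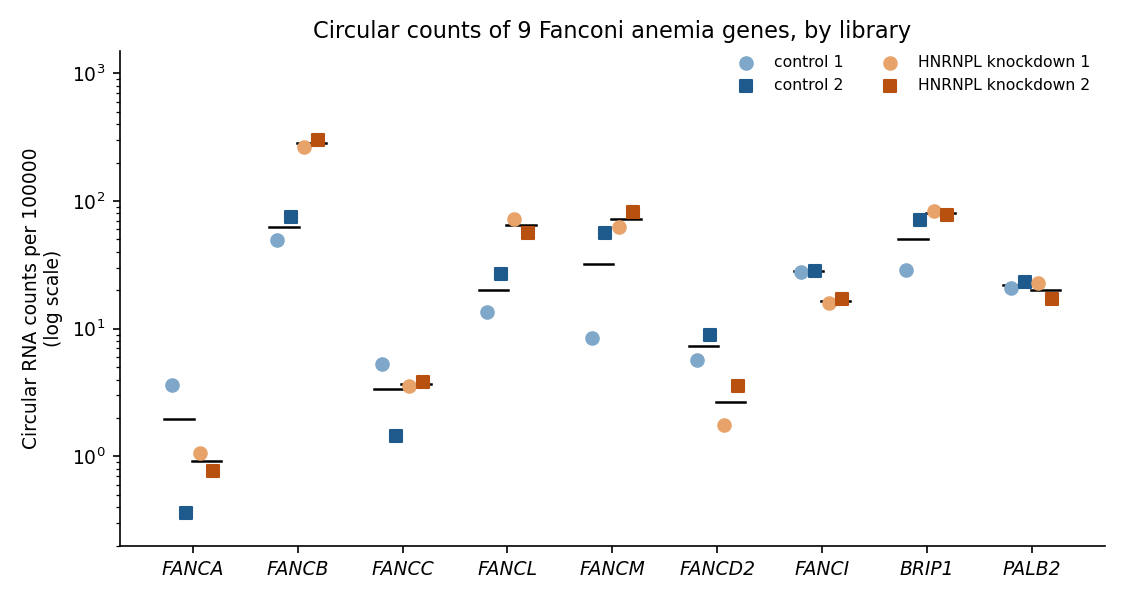
Circular counts of each gene per 100000 library counts, 1 point per library, on a log axis, with control and HNRNPL knockdown libraries in separate colours. The FANCB points of the knockdown libraries lie at 267 and 299.8, above the control points at 49.5 and 74.7, while the points of PALB2 overlap.

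Among the genes other than FANCB, 0 of 8 tested genes passed edgeR's quasi-likelihood test at the adjusted threshold of 0.05, and DESeq2 called FANCL. Over all 8379 host genes, edgeR called 37 (0.442%), all of them higher in the knockdown, and DESeq2 called 185 (2.21%). FANCL was the 1 gene of the 8 with an unadjusted p under 0.05 in edgeR, where 7.58% of all host genes passed as higher and 6.17% as lower. The median log2 fold change of these 8 genes was 0.34, beside -0.26 for all host genes. With scaling to library size alone these medians were -0.02 and -0.60, so directions near 0 depend on the scaling.

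FANCB (ENSG00000181544.16, chrX:14689524-14873069, minus strand) carried the most circular counts of the 10 genes, 2575 over 74 detected circles. Its counts were 234 and 416 with the control hairpin, and 754 and 1171 with the HNRNPL hairpin. On the scale per 100000 this was 62.1 ± 17.8 (SD, n = 2) in the controls and 283 ± 23.4 (SD, n = 2) in the knockdowns, a 4.56-fold difference. The libraries of the 2 groups did not overlap. The fitted log2 fold change came to 2.47 ± 0.46 (SE). Against control replicate 2 alone the level was 3.79-fold higher, and against control replicate 1 alone 5.72-fold.

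The excess was not spread evenly over the gene. Its most abundant circle by counts summed over the 4 libraries, chrX:14843660-14865580, is 2557 nt long with 8 exons. It had 20 and 31 control counts, beside 222 and 338 knockdown counts. That rank comes from the knockdown counts, since chrX:14796160-14859334 had more control counts, 49 and 58. The level of the leading circle was 4.90 ± 0.945 and 82.5 ± 5.68 per 100000 (SD, n = 2 each), 16.8-fold higher in the knockdown. This circle made up 8.00 ± 0.774% of FANCB counts in the controls and 29.2 ± 0.409% in the knockdowns (SD, n = 2 each). The next circle, chrX:14843660-14859334, with 1536 nt and 7 exons, had 27, 72, 204 and 307 counts, in the order control 1, control 2, knockdown 1 and knockdown 2, which is used from here on. It was 8.08-fold higher, and 5.83-fold and 13.2-fold without control replicates 1 and 2 in turn. Another circle from the same donor, chrX:14843660-14869043 (2678 nt, 9 exons), had 3, 15, 62 and 102 counts and was 14.4-fold higher, with 8.91-fold and 37.8-fold in the same order.

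Circles that end at a donor further downstream differed less between the groups. chrX:14796160-14865580 (3227 nt, 10 exons) had 18, 68, 39 and 52 counts, and chrX:14796160-14859334 (2206 nt, 9 exons) had 49, 58, 30 and 37. Both use the same acceptors as the leading pair of circles and differ in the donor alone. Their log2 fold changes were 0.79 ± 0.49 and -0.11 ± 0.38 (SE), against 4.04 ± 0.38 and 3.03 ± 0.41 for the leading pair. An upstream donor gave values between these. chrX:14850505-14859334 (545 nt, 4 exons) had 20, 31, 42 and 64 counts and was 3.19-fold higher, and chrX:14850505-14865580 (1566 nt, 5 exons) had 10, 17, 35 and 72 and was 5.96-fold higher.

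**Figure D2:**
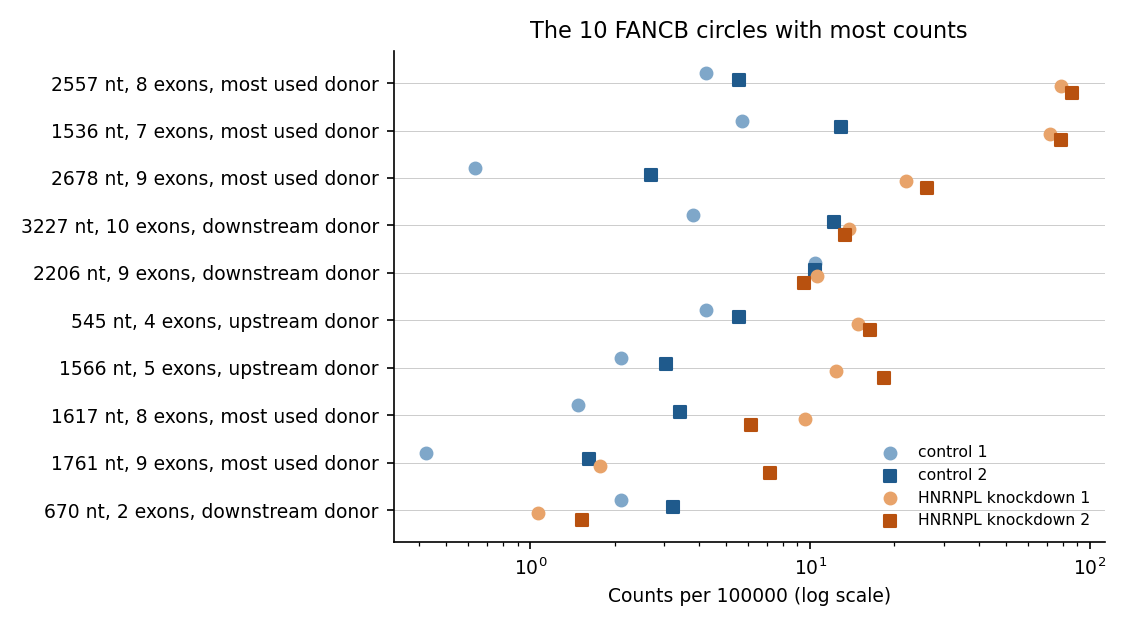
Levels of the most abundant FANCB circles per 100000 library counts in each of the 4 libraries, grouped by donor. The leading circle of the most used donor lies at 4.90 ± 0.945 in the controls and 82.5 ± 5.68 in the knockdowns, while the circle of the downstream donor with 49, 58, 30 and 37 counts overlaps between groups.

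Summed by splice site, the same pattern held. Sites with at least 100 counts were taken, a limit set with the values known. Donor chrX position 14843660, 29409 nt from the 5′ end of the gene, took part in 19 circles and had 64, 166, 555 and 862 counts, 9.61-fold higher in the knockdown. It held 33.6 ± 8.88% of FANCB counts in the controls and 73.6 ± 0.00344% in the knockdowns (SD, n = 2 each). Donor 14796160, at 76909 nt from the 5′ end, took part in 12 circles with 94, 172, 89 and 120 counts, a ratio of 1.22, and its share went from 40.8 ± 0.831% to 11.03 ± 1.10%. Donor 14850505 had 30, 48, 78 and 141 counts, a ratio of 4.25. Among the acceptors the ratios were 3.99 at 14859334, 7.08 at 14865580, 6.94 at 14869043 and 2.37 at 14862332. Among these sites the donor sums ranged more widely than the acceptor sums, which depends on the limit. Below it, acceptor 14797298 had 10, 18, 3 and 6 counts and a ratio of 0.485. Donor 14757612, also below it, had 1, 0, 3 and 9 counts and a ratio of 15.9. Without control replicate 1 the ratios of the first 2 donors were 6.99 and 1.01, and without control replicate 2 they were 15.4 and 1.56.

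The exons held in FANCB circles showed the same step. Exons were counted from the first listed structure of each exon circle, numbered here 5′ to 3′ over the 12 exons with at least 100 counts and not by a transcript annotation. Exons 4 to 10, from chrX:14859182-14859334 to chrX:14843660-14843981, were between 4.99-fold and 5.21-fold higher in the knockdown. Exon 11 (chrX:14796770-14797298, 529 nt) had 27.7 ± 8.89 per 100000 in the controls and 35.1 ± 0.386 in the knockdowns (SD, n = 2 each), a ratio of 1.27, and exon 12 a ratio of 1.28. At the 5′ end, exon 2 (chrX:14864560-14865580, 1021 nt) was 7.03-fold higher. The short exon 3 (chrX:14862252-14862332, 81 nt) was 2.30-fold higher and was held in 231 counts, against 1191 for exon 2 and 2380 for exon 4. Of the FANCB positions, 31 with 527 counts are also annotated to NPM1P9. Counting positions annotated to FANCB alone, the leading circle took 14.3 ± 1.59% of counts in the controls and 33.4 ± 0.932% in the knockdowns.

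**Figure D3:**
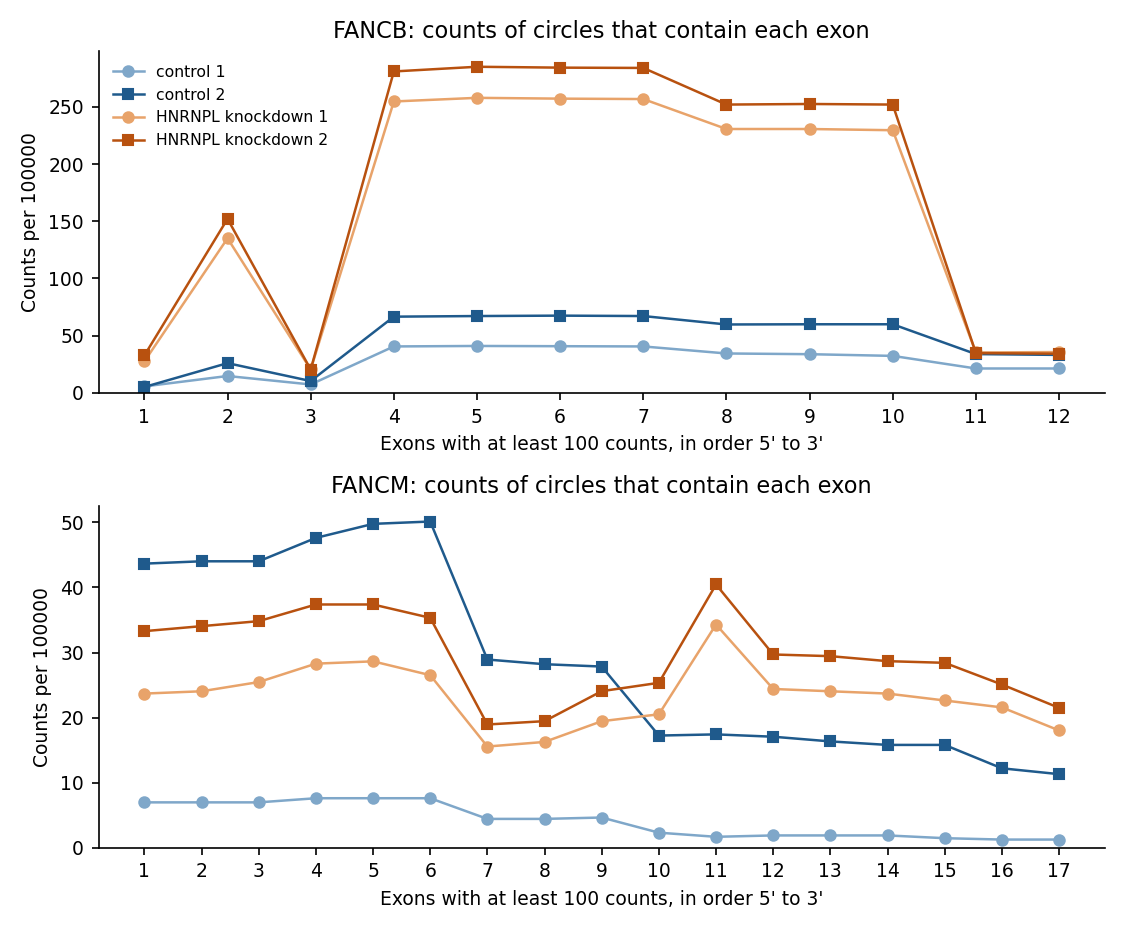
Counts per 100000 of circles that hold each exon of FANCB and FANCM, ordered 5′ to 3′, for each library. In FANCB the groups separate over exons 4 to 10, with ratios of 4.99 to 5.21, and come close at exons 11 and 12, with ratios of 1.27 and 1.28. In FANCM the ratio is between 1.03 and 1.19 over exons 1 to 8 and between 2.34 and 3.91 over exons 10 to 17.

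In 23 FANCB circles with at least 10 counts, 15 were higher in both knockdown libraries than in both controls, 1 was lower and 7 overlapped. Their log2 fold changes had a median of 2.15. Over all circles with at least 10 counts, 23.2% were higher in this way and 22.9% lower. The lower circle, chrX:14796160-14797298 (670 nt), uses the downstream donor and had 10, 18, 3 and 6 counts. These counts describe a gene taken for its difference, and nothing is read from them against the background.

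FANCL (ENSG00000115392.13, chr2:58159243-58241380, minus strand), which encodes the ligase of the core complex, had 64, 148, 206 and 221 counts. Its level was 20.1 ± 9.22 per 100000 in the controls and 64.7 ± 11.5 in the knockdowns (SD, n = 2 each), a 3.23-fold difference, and both knockdown libraries lay above both controls. In the edgeR fit the log2 fold change came to 1.95 ± 0.46 (SE) and the adjusted p to 0.144, so it did not pass. DESeq2 on the same counts gave an adjusted p of 0.00654. Against control replicate 2 alone the level was 2.43-fold higher and against control replicate 1 alone 4.78-fold. With a library left out the fitted log2 fold change of FANCL ran from 1.51 to 2.82. In those fits a lone library is assumed to vary like the other group, so their p-values are not given.

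FANCL circles came mostly from 1 acceptor, chr2 position 58232112, which held 74.6% of its counts. The leading circle, chr2:58221942-58232112, had 46, 65, 126 and 108 counts. It was 3.37-fold higher in the knockdown, with a log2 fold change of 1.70 ± 0.38 and an edgeR adjusted p of 0.144. It is listed with 5 structures, the first of them 3307 nt long in 3 exons. chr2:58198594-58232112 (444 nt, 6 exons) had 6, 27, 39 and 56 counts and was 4.60-fold higher, which was 2.90-fold without control replicate 1 and 11.1-fold without control replicate 2. chr2:58221942-58229874 (3248 nt) had 1, 5, 13 and 17 counts and was 8.06-fold higher, which was 4.98-fold and 21.1-fold in the same order. A pair of circles from donor 58159651, near the 3′ end of the gene, carry an AG-GG motif in place of AG-GT. They had 2, 22, 16 and 16 counts (chr2:58159651-58165874, 702 nt) and 2, 8, 3 and 4 counts (chr2:58159651-58204226). In the latter the groups overlapped. The share of the leading circle in the gene was 57.9 ± 19.8% in the controls and 55.0 ± 8.69% in the knockdowns (exact permutation p = 1.0, two-sided, n = 2 against 2, where the smallest possible p is 0.333).

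FANCM (ENSG00000187790.12, chr14:45135930-45200890, plus strand), the translocase, had 40, 310, 178 and 321 counts. Its level was 32.1 ± 33.4 per 100000 in the controls and 72.6 ± 13.6 in the knockdowns (SD, n = 2 each). Both knockdowns lay above both controls, but the controls differed from each other by more than the groups did. The log2 fold change was 1.40 ± 0.77 with an edgeR adjusted p of 0.452. Against control replicate 2 alone the ratio was 1.30 (log2 fold change 0.63) and against control replicate 1 alone 8.57 (log2 fold change 3.68).

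Within FANCM, the values of circles from the 5′ part and the 3′ part of the gene lay apart. The most abundant circle, chr14:45148837-45159280 (822 nt, 6 exons), had 13, 113, 29 and 60 counts, and chr14:45148837-45170746 (1401 nt, 9 exons) had 13, 66, 15 and 29. The groups overlapped for both, and the log2 fold changes were 0.26 ± 0.75 and -0.13 ± 0.62. chr14:45175071-45176976, a single exon of 1906 nt, had 0, 6, 37 and 63 counts, a level of 0.539 ± 0.762 against 14.6 ± 2.15 per 100000 (SD, n = 2 each). This was 27.1-fold higher in the knockdown, 13.6-fold against control replicate 2 alone, with a log2 fold change of 4.65 ± 0.83 and an edgeR adjusted p of 0.0995. chr14:45181430-45189362 (1118 nt, 6 exons) had 0, 1, 10 and 20 counts, a pooled ratio of 45.9 with an exact 95% counting interval of 7.62 to 1871. chr14:45173055-45189362 (3180 nt, 8 exons) had 2, 6, 9 and 27 counts and was 6.72-fold higher, or 4.68-fold and 11.9-fold without control replicates 1 and 2 in turn. The long circle chr14:45148837-45189362 (4581 nt, 17 exons), which covers both parts, had 0, 33, 5 and 5, and its groups overlapped.

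Acceptor chr14 position 45148837, shared by the 5′ circles, had 29, 222, 58 and 113 counts and a ratio of 1.07. Acceptor 45175071 had 0, 6, 40 and 72 counts and a ratio of 30.2, and 15.1 without control replicate 1. By exon, the ratios lay between 1.03 and 1.19 over exons 1 to 8 and between 2.34 and 3.91 over exons 10 to 17. Without control replicate 1 these ranges were 0.597 to 0.690 and 1.33 to 2.15, and without control replicate 2 they were 3.88 to 4.33 and 9.85 to 22.1. Of the 12 FANCM circles with at least 10 counts, the 6 with an acceptor before the midpoint of the gene overlapped between the groups and the 6 with an acceptor after it were all higher in both knockdown libraries. This split was drawn after the values were seen. Summed, the 5′ circles were at 24.1 ± 26.1 and 23.5 ± 6.23 per 100000, and the 3′ circles at 2.11 ± 2.09 and 30.3 ± 5.32 (SD, n = 2 each). Without control replicate 1 the ratios of the sums were 0.552 and 8.43, and without control replicate 2 they were 4.11 and 47.7. The 3′ circles thus had the higher ratio with either control. The leading circle held 34.5 ± 2.79% of FANCM counts in the controls and 17.5 ± 1.70% in the knockdowns (exact permutation p = 0.333, two-sided, the smallest possible for n = 2 against 2). edgeR's F test of unequal change among the 12 circles of FANCM gave an adjusted p of 0.0681. It was 0.0286 when circles needed at least 40 counts, where 138 of 785 genes were called, and 0.213 by the Simes method. With a library left out, 1 group holds 1 library, so p-values of those FANCM fits are not given.

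FANCA (ENSG00000187741.16, chr16:89737549-89816647, minus strand) had 17, 2, 3 and 3 counts over 13 detected circles, none of which reached 10. The edgeR log2 fold change was -0.70 ± 1.22 with an adjusted p of 0.831. The sign rests on control replicate 1, since against control replicate 2 alone the ratio of levels was 2.55. FANCC (ENSG00000158169.14, chr9:95099054-95317709, minus strand) had 25, 8, 10 and 15 counts, with 3.36 ± 2.73 and 3.69 ± 0.215 per 100000 in controls and knockdowns (SD, n = 2 each; edgeR adjusted p = 0.767). Of its 58 counts, 44 were in circles of intron type. Its most abundant circle, chr9:95231780-95232426 (647 nt), is of that type and had 11, 0, 0 and 0 counts, so it was found in control replicate 1 alone. At these depths neither a difference nor its absence could be shown for either gene.

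The paired substrates of the core complex were lower in both knockdown libraries, as were 36.7% of all host genes, and neither passed the test. FANCD2 (ENSG00000144554.13, chr3:10026437-10101932, plus strand) had 27, 50, 5 and 14 counts, a level of 7.35 ± 2.31 against 2.68 ± 1.28 per 100000 (SD, n = 2 each) and a ratio of 0.364. The edgeR log2 fold change was -1.13 ± 0.59 with an adjusted p of 0.431. The FANCD2 ratio came to 0.298 against control replicate 2 alone, and to 0.468 against the other control. Over the fits that leave out a library, the log2 fold change of FANCD2 lay between -1.77 and -0.45. Their p-values are not given, since 1 group then holds 1 library. Acceptor chr3 position 10065394 held 50.0% of its counts. From it, chr3:10065394-10088950 had 3, 10, 0 and 0 counts, at least 1.33-fold lower in the knockdown against a floor of 3 counts per library, and chr3:10065394-10092252 had 1, 6, 0 and 5.

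FANCI (ENSG00000140525.20, chr15:89243979-89317259, plus strand) had 132, 158, 45 and 67 counts. The level was 28.2 ± 0.316 per 100000 in the controls and 16.5 ± 0.877 in the knockdowns (SD, n = 2 each), a ratio of 0.587 that stayed between 0.582 and 0.592 with either control left out. The groups did not overlap, and each pair of replicates lay close together. The edgeR log2 fold change was smaller, -0.46 ± 0.33, with an adjusted p of 0.555, beside a median of -0.26 over all host genes. The fit rescales the libraries (TMM), which the share of a library does not. FANCI spread its counts over many positions. It had 97 detected circles, of which 55 were seen in a single library, and the most abundant, chr15:89263419-89293063 (1788 nt, 16 exons), had 7, 13, 2 and 4 counts, or 6.47% of the total. chr15:89281170-89293063 (2210 nt, 7 exons) had 3, 16, 0 and 1 counts, a pooled ratio of 0.0804 with an exact 95% counting interval of 0.00194 to 0.506. chr15:89273377-89293063 had 3, 5, 7 and 1 counts and overlapped. Of 11 circles with at least 10 counts, 5 were lower in both knockdown libraries, 1 was higher and 5 overlapped, where 22.9% of all circles were lower and 23.2% higher.

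BRIP1 (ENSG00000136492.10, chr17:61679139-61863528, minus strand), the helicase, had 136, 396, 234 and 305 counts. Its level was 50.0 ± 30.0 per 100000 in the controls and 80.4 ± 3.30 in the knockdowns (SD, n = 2 each), a ratio of 1.61 with an edgeR log2 fold change of 0.94 ± 0.51 and an adjusted p of 0.445. Against control replicate 2 alone the ratio was 1.13 and against control replicate 1 alone 2.79. The leading circle, chr17:61776401-61780401, had 52, 92, 57 and 82 counts. It is listed with 5 structures, the first running unbroken over 4001 nt and the others with parts spliced out. Its log2 fold change was 0.56 ± 0.35 (edgeR adjusted p = 0.430). Its donor, 61776401, had 81, 195, 100 and 127 counts in 15 circles and a ratio of 1.30, or 0.969 and 1.98 without control replicates 1 and 2 in turn.

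A second group of BRIP1 circles lay at the 3′ end of the gene. Donor 61683315, at 180213 nt from the 5′ end, had 0, 31, 45 and 58 counts, a ratio of 5.52, and 2.76 without control replicate 1. chr17:61683315-61684140 (826 nt) had 0, 3, 13 and 28 counts, a pooled ratio of 20.9 with an exact 95% counting interval of 6.66 to 105, and an edgeR adjusted p of 0.127. chr17:61683315-61686165 (2851 nt) had 0, 10, 22 and 23 counts and was 7.61-fold higher, 3.80-fold against control replicate 2 alone (edgeR adjusted p = 0.267). Other abundant circles overlapped between the groups: chr17:61776401-61808757 had 7, 32, 12 and 11 counts, chr17:61744432-61780401 had 6, 22, 4 and 8, and chr17:61743013-61793729 had 2, 15, 7 and 14. edgeR's F test of unequal change among BRIP1 circles gave an adjusted p of 0.242. It was 0.0115 when circles needed at least 40 counts, where 138 of 785 genes were called, and 0.150 by the Simes method. For the same reason as in FANCM, p-values with a library left out are not given.

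PALB2 (ENSG00000083093.12, chr16:23603165-23641310, minus strand) overlapped between the groups, with 98, 129, 65 and 67 counts. Its level was 22.0 ± 1.72 per 100000 in the controls and 20.1 ± 4.13 in the knockdowns (SD, n = 2 each; edgeR log2 fold change 0.16 ± 0.35, adjusted p = 0.864). Acceptor chr16 position 23638129, 3181 nt from the 5′ end, held 82.2% of the counts, with 78, 103, 53 and 61 and a ratio of 0.981. Joined to it were chr16:23621362-23638129 (3065 nt, 9 exons) with 34, 45, 20 and 24 counts, chr16:23603587-23638129 with 27, 29, 16 and 15, chr16:23614004-23638129 with 10, 13, 2 and 4, and chr16:23629204-23638129 with 2, 3, 5 and 9. Those ending at donors 23621362 and 23614004 were lower in both knockdown libraries and that ending at 23629204 was higher, with edgeR adjusted p of 0.763, 0.430 and 0.396. SLX4 (ENSG00000188827.12, chr16:3581181-3611606, minus strand) had 2, 0, 0 and 0 counts and was not tested.

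**Figure D4:**
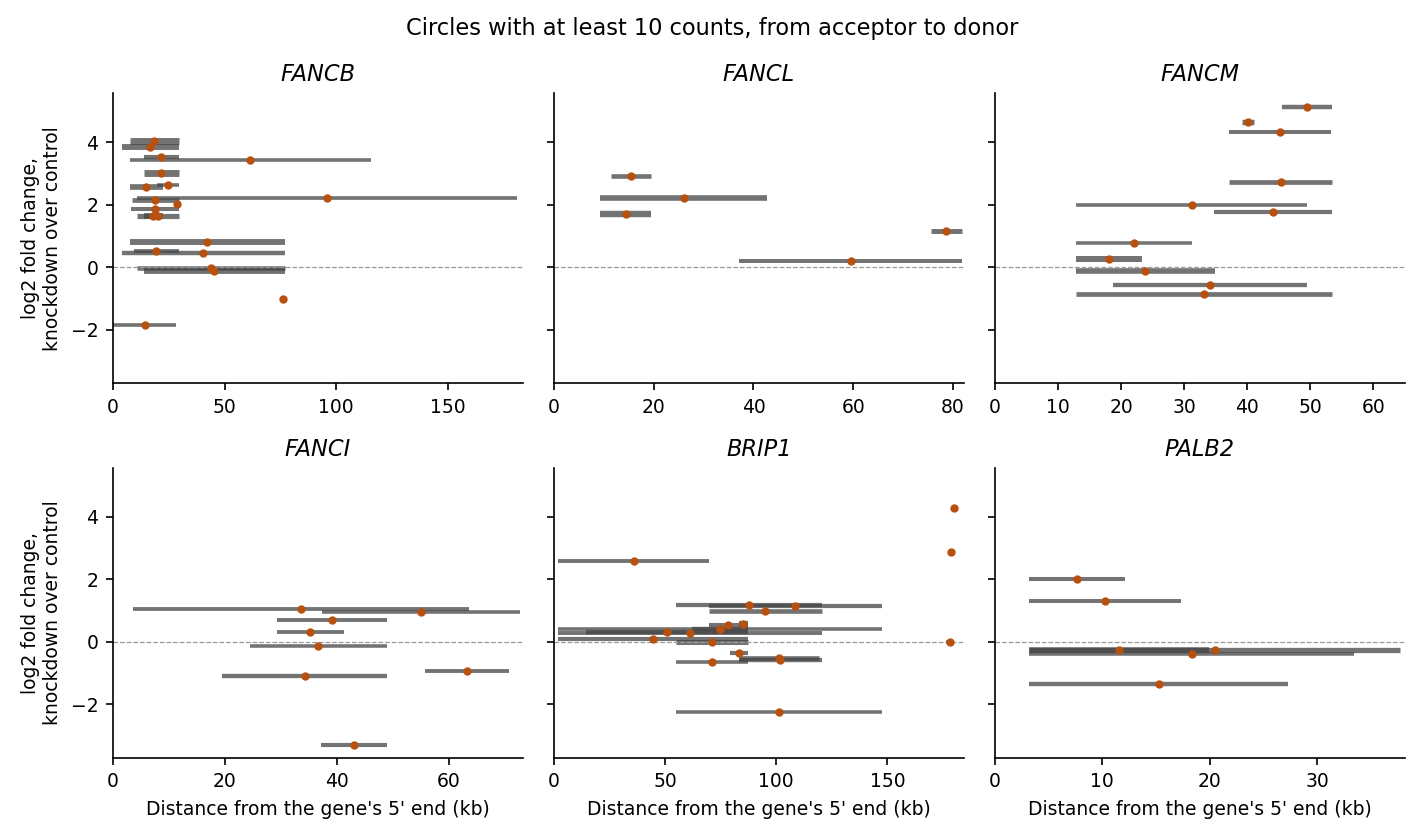
Circles with at least 10 counts of 6 genes, drawn from acceptor to donor by distance from the 5′ end of the gene in kb, against the fitted log2 fold change of knockdown over control. A point marks the middle of each circle, thicker bars have more counts, and 7 circles with no count in a whole group are left out because their fitted value depends on the prior count. In FANCB the circles that end near 29 kb lie mostly above those that end near 77 kb, and in FANCM the 5 drawn circles that start after the midpoint of the gene lie above most of those that start before it.

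At the level of single circles, 57 circles of the genes other than FANCB were tested, and edgeR called 0 of them at an adjusted p of 0.05. It also called 0 of all 21576 circles (0.0%), where DESeq2 called 1052 (4.88%). At an unadjusted p under 0.05, 10 of the 57 circles of the genes other than FANCB passed, all higher in the knockdown: 5 of FANCM, 3 of FANCL and 2 of BRIP1. Over all circles 9.42% passed higher and 4.0% lower. Of the same 57, DESeq2 called 8. The groups did not overlap in 27 of the 57, 19 higher and 8 lower, beside 23.2% and 22.9% of all circles. The median log2 fold change was 0.31 over the 57 and -0.39 over all circles. The test of unequal change among circles of a gene covered 6 member genes other than FANCB and called 0, with 6 adjusted p between 0.0681 and 0.655. Over all genes it called 96 of 2335 (4.11%). At an unadjusted p under 0.05 it passed FANCM and BRIP1, and 17.7% of all genes.

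In form, the member circles were long exon circles. Of the 451 with a count, 86.3% were of exon type, with a median length of 1742 nt and a median of 9 exons. All positions not antisense with a count had 64.9%, 1346 nt and 6 exons. At 10 or more counts the members had 95.0% exon type, 1756.5 nt and 8 exons, beside 84.7%, 1234 nt and 7 exons for all. The AG-GT splice motif was found for 97.2% of member counts and 93.6% of all. The share of counts at the most used acceptor, 82.2% in PALB2 and 74.6% in FANCL, lay above the median of 42.0% over 2877 host genes with at least 100 counts, and that of FANCI, 15.9%, below it. In FANCB the most used donor, 14843660, held 64.0% over the 4 libraries together, where the median gene had 37.7%. That value follows the knockdown counts for which FANCB was chosen. The same donor held 33.6 ± 8.88% in the controls and 73.6% in the knockdowns, and in the controls donor 14796160 held more, 40.8 ± 0.831%.

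The rest of the pathway was examined in a list of 41 genes, chosen with earlier results of these data known. Of these, 24 had enough counts to be tested, 16 with a log2 fold change above 0 and 8 below, with a median of 0.52. Over all host genes 40.4% were above 0 and the median was -0.26. edgeR called 1 of the 24, USP1, the protease that removes ubiquitin from FANCD2 and FANCI. USP1 had 35, 74, 186 and 347 counts and rose with a log2 fold change of 3.18 ± 0.47 (adjusted p = 0.0410). The call was lost with the newer dispersion method of edgeR (adjusted p = 0.0916), which called 0 of all 8379 host genes. With a library left out the log2 fold change of USP1 ran from 2.79 to 3.96, and the p-values of those fits are not given. DESeq2 called USP1, BRCA2 (adjusted p = 0.00397) and REV3L (adjusted p = 0.0423) of the list, and 185 of all 8379 host genes. In edgeR, BRCA2 and REV3L had adjusted p of 0.161 and 0.203. The 3 members of the list with the most counts did not pass. BARD1, a partner of a recombination ligase, had 1017, 3971, 1863 and 2957 counts (edgeR adjusted p = 0.587), ATR, the checkpoint kinase, 385, 728, 471 and 535 (0.454), and REV1, a translesion polymerase, 532, 639, 255 and 326 (0.938).

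The host genes nearest to FANCB in their levels were sought by Euclidean distance over the 4 libraries in log2(counts per 100000 + 0.5). The 5 nearest were ENSG00000265257 (distance 0.489), ANKRD12 (0.602), RALGAPA1 (0.696), TRPM7 (0.747) and CSE1L (0.754). ANKRD12 had 160, 444, 680 and 1022 counts and CSE1L 200, 643, 661 and 948. Each was higher in both knockdown libraries, which follows from the choice of genes with levels like those of FANCB. ENSG00000265257 and ANKRD12 are not independent, since 2256 of the 2356 counts of the former lie in circles that also name ANKRD12.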

How the data were processed

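The authors deposited whole-number counts, 1 row per back-splice position, from 4 nanopore libraries, with CIRI-long named in each row per the file columns. Per the labels' protocols, Induro reverse transcriptase primed with random hexamers made the cDNA, which phi29 polymerase amplified. GRCh38.p14 and DESeq2 are named in the submitters' processing notes. Aligner and filters are not given in the sources used here. Of rows with a matched symbol, 99.4% lay within 1000 nt of that gene in the RefSeq table of GRCh38.p14, which gave the gene spans. Coordinates are 1-based.

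Knockdown was compared with control by edgeR 4.0.16 (R 4.3.3; TMM, glmQLFit, glmQLFTest, at least 10 counts, Benjamini-Hochberg over all features, threshold 0.05) on circles, on counts summed per gene named (a row counts for each gene it names), and by diffSpliceDGE for unequal change. SE was derived from the F statistic. DESeq2 1.42.0 was an alternative. p-values measure the spread between these libraries, and the labels do not say whether replicates were separate cultures. The method was tested on simulated data. Members and lists were chosen with earlier results of these data known. Circles named are the 3 most abundant of each gene (6 above 500 counts) and that with the smallest p, plus examples chosen after their values were seen. Sequences were not analysed here.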

Additional observations from a re-analysis of the deposited data

How the results depend on the processing

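Fitted directions of FANCB, FANCL, FANCM and BRIP1 (higher) and of FANCD2 and FANCI (lower) held under every alternative in which they were tested. The alternatives were library-size scaling, DESeq2 size factors, DESeq2, 3 other count filters, the newer dispersion method, the replicate block, single-gene positions, exon circles and leaving out each library. Whether a value passed often did not hold, and counts of member calls here leave out FANCB. Calls with a library left out are not counted, since 1 group then holds 1 library. Against 0 circles called by edgeR, DESeq2 called 8, no filter 3, at least 5 counts in 2 libraries 8, at least 40 counts 5 and the replicate block 9, and leaving out a library gave 0 to 19. DESeq2, no filter, the filters at 5 and at 40 counts and the replicate block tested 57, 377, 36, 15 and 57 member circles. Over all circles they called 1052 of 21576, 471 of 190152, 1404 of 11711, 617 of 4944 and 1653 of 21576. The 0 to 19 with a library left out shows only how far the number of calls moves. Against 0 of 8 genes, DESeq2 called 1 of 8, no filter 1 of 9 and the replicate block 2 of 8. All host genes gave 185 of 8379, 412 of 14794 and 366 of 8379 in that order. FANCA had too few counts for the fit without control replicate 1. Unequal change was called in 0 of 6 genes, in 2 of 4 at 40 counts and in 2 of 6 with the replicate block. Over all genes it was called in 96 of 2335, 138 of 785 and 584 of 2335 in that order. Same-numbered libraries deviated together little (r = 0.0706 over 4944 circles, across circles, which are not independent replicates), so the numbers were taken as names.

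The difference in the FANCB leading share, 21.2 points, was 19.2 over single-gene positions. With a library left out, the difference in leading share ran from -16.9 to 11.1 points in FANCL, -12.6 to 2.39 in BRIP1 and -4.02 to 1.03 in PALB2. Log2 fold changes near 0 changed sign. FANCC was -1.09 in exon circles. PALB2 was -0.15 with library-size scaling and -0.00047 to 0.50 with a library left out. With a library left out, chr14:45148837-45159280 ran from -0.47 to 1.97, chr14:45148837-45189362 from -1.80 to 5.44, chr16:23603587-23638129 from -0.56 to 0.022, chr17:61744432-61780401 from -0.97 to 0.22, and chrX:14796160-14859334 from -0.32 to 0.11. chr14:45148837-45170746 was 0.0098 with the replicate block and -0.70 to 0.97 with a library left out. chr17:61776401-61808757 was 0.014 with DESeq2 size factors, 0.027 with DESeq2, 0.11 at 40 counts, 0.076 with the replicate block and -0.57 to 0.94 with a library left out. chr2:58159651-58204226 was -0.022 with no filter and -0.29 to 0.28 with a library left out. chr3:10065394-10092252 was -0.037 with library-size scaling, -0.050 with no filter, -0.031 with the replicate block and -0.38 to 1.12 with a library left out. The cause was not tested. Of 424 values over 36 results other than FANCB under alternatives, fits with a library left out included, 24 changed direction. Depth limits FANCA, FANCC, FANCD2 and SLX4 most, with 25, 58, 96 and 2 counts.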

Other observations

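Antisense circles of the 10 genes were left out of all comparisons. BRIP1 had 20, 15, 0 and 0 antisense counts over 11 positions in control 1, control 2, knockdown 1 and knockdown 2, and FANCC had 4, 4, 0 and 0. FANCL had 7, 2, 3 and 2, FANCB 4, 0, 2 and 1, and FANCA 6, 0, 0 and 0.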
